A study of Mus musculus with 5 samples.

Results

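Granins are acidic proteins that are packed, together with prohormones and the enzymes that process them, into the dense-core granules of neurons and neuroendocrine cells, from which they are released on stimulation. The messenger RNAs of 10 such cargo genes were followed in RNA that came down with SMN, the survival of motor neuron protein: the granin family genes Chga, Chgb, Scg2, Scg3, Scg5 and Vgf, the inhibitor gene Pcsk1n, the processing enzyme genes Pcsk2 and Cpe, and the neuropeptide gene Rln3. A gene was taken as measured where a probe set carried its symbol and no other. This gave 9 of the 10 genes, each with 1 probe set, among 19937 genes and 28187 probe sets in all; Pcsk2 had no probe set of its own and has no value here. The genes were chosen from the array values themselves, with the difference between the precipitates already known. Their differences are therefore given as a description, without a test, and no value limit separated them from other genes.

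NSC-34 is a mouse line with motor neuron features, made by fusing neuroblastoma cells with spinal cord motor neurons. The 3 FLAG-SMN IP arrays came from cells with a 3XFLAG-tagged full-length SMN construct, and the 2 control IP arrays from cells that lack any FLAG construct, so the control reads RNA held by the beads without a tagged protein. Both kinds of cell were differentiated in 1% serum, for 3 days by one protocol and for 48 hours before induction by another, were given doxycycline at 3 µg/ml for 3 days, and were irradiated once with ultraviolet light at 400 mJ/cm2 before lysis and anti-FLAG precipitation. Whether the tagged line is a clone or a pool, and whether replicates were separate cultures, is not stated in the labels, so the spread between arrays may be technical. RNA of the lysates was not analysed here, so less RNA in the cells and less of it in the precipitate cannot be told apart. In bulk samples the same holds for fewer expressing cells and less RNA per cell.

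SMN is best known for loading Sm proteins onto spliceosomal RNAs, and it also meets messenger RNAs in neuronal processes. Granin proteins aggregate in the trans-Golgi network and help form the granule. Prohormone convertases then cut their clients after pairs of basic residues, carboxypeptidase E trims the exposed basic residues, and the finished peptides are stored until calcium triggers release. Promoters of several granin genes carry a cAMP response element, the binding site of CREB family factors.

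Values are RMA signals on the log2 scale, on which a difference of 1 is a 2-fold change. Levels of different genes are read by different probes and are not compared. Array medians ran from 5.25 to 5.39, and the medians of 6573 presumed control probe sets from 4.30 to 4.55. FLAG-SMN IP replicate 1 stood apart: across probe sets it had Pearson r = 0.964 and 0.968 with replicates 2 and 3, which had r = 0.989 with each other, and the control arrays had r = 0.980. Smn1, the gene of the tagged protein, was at 9.89, 9.50 and 9.46 in FLAG-SMN IP and at 8.10 and 7.64 in control IP (log2 difference 1.74, SE 0.23, limma adjusted p = 0.0877). Values of the cargo genes and list medians are also given without replicate 1.

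Promoter letters were available for 8 of the 10 genes in RefSeq (build GRCm38.p6), without Vgf and Cpe. They are shown because the granin genes are textbook targets of CREB. The sequences are the 120 bases before the annotated start, 5′ to 3′ on the gene's strand, and the capitals mark TGACGT, TGACGTCA or TATAAA. Only the windows of Chga, Chgb, Scg2 and Rln3 are printed, picked because they held such a match. The same windows of Scg3, Scg5, Pcsk1n and Pcsk2 held none and are left out.
Chga, chr12:102554821-102554940, plus strand: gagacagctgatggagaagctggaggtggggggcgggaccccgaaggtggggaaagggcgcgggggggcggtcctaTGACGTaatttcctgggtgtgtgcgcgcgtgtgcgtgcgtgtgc
Chgb, chr2:132781522-132781641, plus strand: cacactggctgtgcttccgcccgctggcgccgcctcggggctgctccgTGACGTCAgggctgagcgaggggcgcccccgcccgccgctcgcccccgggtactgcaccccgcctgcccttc
Scg2, chr1:79440027-79440146, minus strand: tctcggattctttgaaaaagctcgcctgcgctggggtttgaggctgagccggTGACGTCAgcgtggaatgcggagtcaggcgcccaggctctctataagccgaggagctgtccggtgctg
Rln3, chr8:84044980-84045099, minus strand: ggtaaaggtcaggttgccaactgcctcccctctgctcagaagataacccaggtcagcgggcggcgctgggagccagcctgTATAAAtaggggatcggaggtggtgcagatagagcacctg

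The full cAMP response element TGACGTCA stood in 2 of these 8 promoters, 72 to 65 bases before the start of Chgb and 68 to 61 bases before that of Scg2. Searched on both strands of the 250 bases before the start, it occurred in 1.55% of 32851 promoters. The shorter TGACGT, which lies within the full element and was added after the letters were seen, was in 4 of the 8, those of Chga, Chgb, Scg2 and Scg5, and in 6.47% of all promoters. For Chga it lay 44 to 39 bases before the start. The AP-1 site TGACTCA was in 1 of the 8 promoters, that of Pcsk1n, and in 4.46% of all. TATAAA was in 1, that of Rln3, 40 to 35 bases before the start, and in 12.4% of all. These matches describe the letters of the window and are not evidence of binding; the arrays measured precipitated RNA, not transcription.

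All 9 measured genes had lower means in FLAG-SMN IP than in control IP. Their log2 differences ran from -2.23 for Rln3 to -0.51 for Cpe, with a median of -1.42, where the median over all 19937 genes was 0.0019. The groups did not overlap at 6 of the 9 genes (Chga, Chgb, Scg2, Vgf, Cpe and Rln3), where 13.2% of all probe sets had every FLAG-SMN array below both control arrays. At least a 2-fold lower mean was found at 6 of the 9 (Chga, Chgb, Scg2, Scg3, Vgf and Rln3), against 1.73% of all probe sets. Only Rln3 was past an adjusted p of 0.05 in limma, narrowly (adjusted p = 0.0496), and it was not past it in 7 of 11 alternative fits, with limma adjusted p up to 0.474. Of all probe sets, 0.0177% were past it in this direction and 0.0142% in the other, where none of the 9 genes lay. Because the genes were proposed from this contrast, these counts describe them and support nothing.

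**Figure D1:**
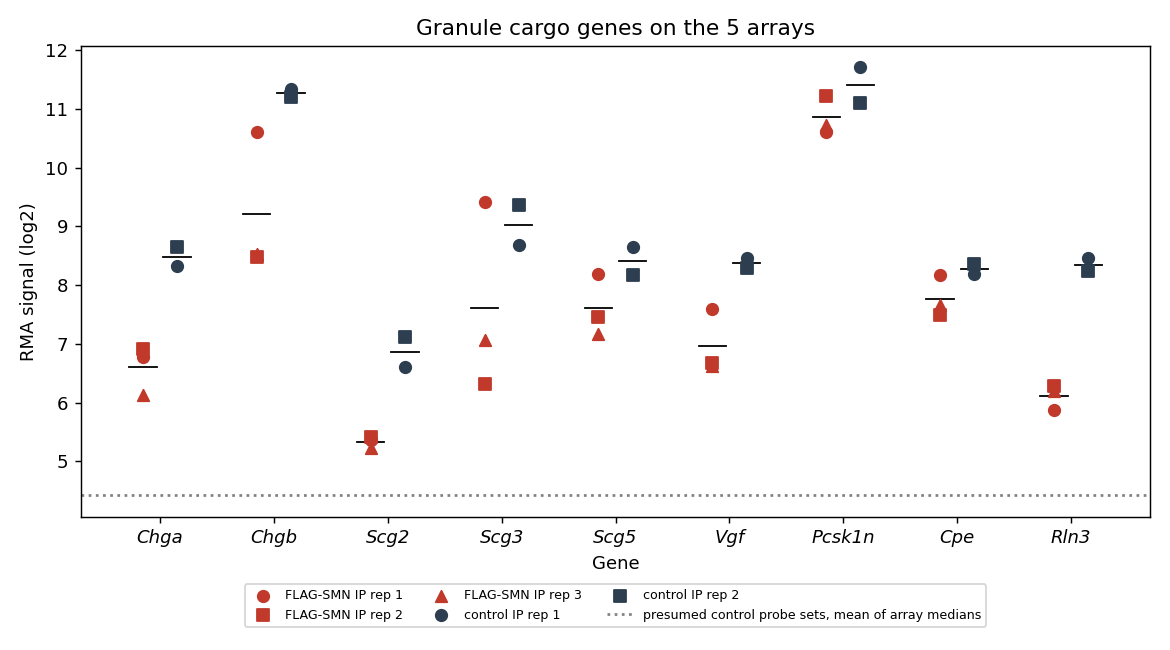
RMA signal (log2 axis values) of the 9 measured genes on each array, FLAG-SMN IP in red and control IP in dark blue, with marker shape for the replicate and a black bar for each group mean; the dotted line is the mean over arrays of the median presumed control probe set. Red points lie below both blue points at 6 genes, and FLAG-SMN IP replicate 1 (red circle) lies among or above the control points at Scg5 and Scg3.

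Chromogranin A, the product of Chga, is the founding granin and the precursor of several regulatory peptides. Its RNA was at 6.78, 6.91 and 6.12 in FLAG-SMN IP replicates 1, 2 and 3 and at 8.33 and 8.64 in control IP replicates 1 and 2. All 3 FLAG-SMN arrays were below both controls, with a gap of 1.42 between the nearest arrays. The means were 6.61 ± 0.43 (SD, n = 3) and 8.49 ± 0.22 (SD, n = 2), a difference of -1.88 or 3.68-fold, and of -1.97 without replicate 1.

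Chgb encodes chromogranin B, the other abundant chromogranin of neuroendocrine granules. The FLAG-SMN IP arrays gave 10.60, 8.48 and 8.53 and the control IP arrays 11.33 and 11.20. Replicate 1 lay much nearer to the controls than to replicates 2 and 3, although still 0.59 below the lower control array. The means of 9.21 ± 1.21 (SD, n = 3) and 11.26 ± 0.095 (SD, n = 2) differed by -2.06, or 4.16-fold. Without replicate 1 the difference was -2.75, or 6.75-fold.

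Secretogranin II, from Scg2, gives rise to the peptide secretoneurin. Scg2 was at 5.36, 5.41 and 5.23 in FLAG-SMN IP and at 6.60 and 7.12 in control IP, so the tagged arrays were tightly grouped and the controls were the wider pair. The means were 5.33 ± 0.092 (SD, n = 3) and 6.86 ± 0.36 (SD, n = 2), a difference of -1.53 or 2.89-fold, and of -1.54 without tagged replicate 1. In FLAG-SMN IP this gene was brighter than 65.6% to 67.5% of the presumed control probe sets, the lowest standing among the 9 genes, so the size of its fold is uncertain.

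Secretogranin III, from Scg3, tethers granin aggregates to cholesterol-rich granule membrane. Scg3 had the widest spread of the 9 genes, at 9.42, 6.32 and 7.07 in FLAG-SMN IP and at 8.69 and 9.37 in control IP. Replicate 1 was above both controls, while replicates 2 and 3 were below both. The means of 7.60 ± 1.62 (SD, n = 3) and 9.03 ± 0.48 (SD, n = 2) differed by -1.42, less than the SD among the tagged arrays. The difference was -2.33 without replicate 1 and -0.78 without replicate 2, so its size depends on single arrays.

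Vgf is a nerve growth factor-inducible gene whose protein is cut into several neuropeptides. The FLAG-SMN IP arrays read 7.60, 6.68 and 6.62 and the control IP arrays 8.46 and 8.30. Every tagged array was below both controls, replicate 1 by the least, with a gap of 0.70. The means were 6.96 ± 0.55 (SD, n = 3) and 8.38 ± 0.12 (SD, n = 2), a difference of -1.42 or 2.67-fold, and of -1.73 without replicate 1.

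Among the measured cargo genes, those tied to processing (Scg5, Pcsk1n and Cpe) showed the smallest differences. Scg5 encodes a chaperone that the convertase encoded by Pcsk2 needs for its activation. Its signal was 8.19, 7.46 and 7.17 in FLAG-SMN IP and 8.65 and 8.18 in control IP. The groups met, as replicate 1 was 0.018 above the lower control array. The means of 7.61 ± 0.53 (SD, n = 3) and 8.42 ± 0.34 (SD, n = 2) differed by -0.81, and by -1.10 without replicate 1.

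Pcsk1n encodes proSAAS, an inhibitor of the convertase encoded by Pcsk1. Its signal was 10.60, 11.22 and 10.73 in FLAG-SMN IP and 11.71 and 11.10 in control IP, with tagged replicate 2 above the lower control. The means of 10.85 ± 0.33 (SD, n = 3) and 11.40 ± 0.43 (SD, n = 2) differed by -0.55, about the size of the spread within the groups. It was -0.42 without FLAG-SMN IP replicate 1, -0.24 without control IP replicate 1 and -0.85 without control IP replicate 2.

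Carboxypeptidase E, from Cpe, is the enzyme that removes basic residues from peptide ends in the granule. Cpe was at 8.17, 7.48 and 7.66 in FLAG-SMN IP and at 8.20 and 8.37 in control IP. The groups did not overlap, but by only 0.025 between replicate 1 and the nearer control. The means of 7.77 ± 0.36 (SD, n = 3) and 8.28 ± 0.12 (SD, n = 2) differed by -0.51, the smallest difference of the 9 genes, or 1.42-fold. It was -0.71 without replicate 1.

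Rln3 encodes a relaxin family neuropeptide best known from brainstem neurons of the nucleus incertus. The tagged precipitates gave 5.87, 6.29 and 6.20 and the controls 8.46 and 8.24. Every tagged array was below both controls, and the gap of 1.95 between the nearest arrays was the widest of the 9 genes. The means were 6.12 ± 0.22 (SD, n = 3) and 8.35 ± 0.16 (SD, n = 2), a difference of -2.23 or 4.68-fold. Leaving out any 1 array kept the difference between -2.34 and -2.10. In FLAG-SMN IP Rln3 was brighter than 72.2% to 77.3% of the presumed control probe sets. Its 5.87 in replicate 1 was below their upper quartile on that array, 6.14. The size of its fold is therefore uncertain too.

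**Figure D2:**
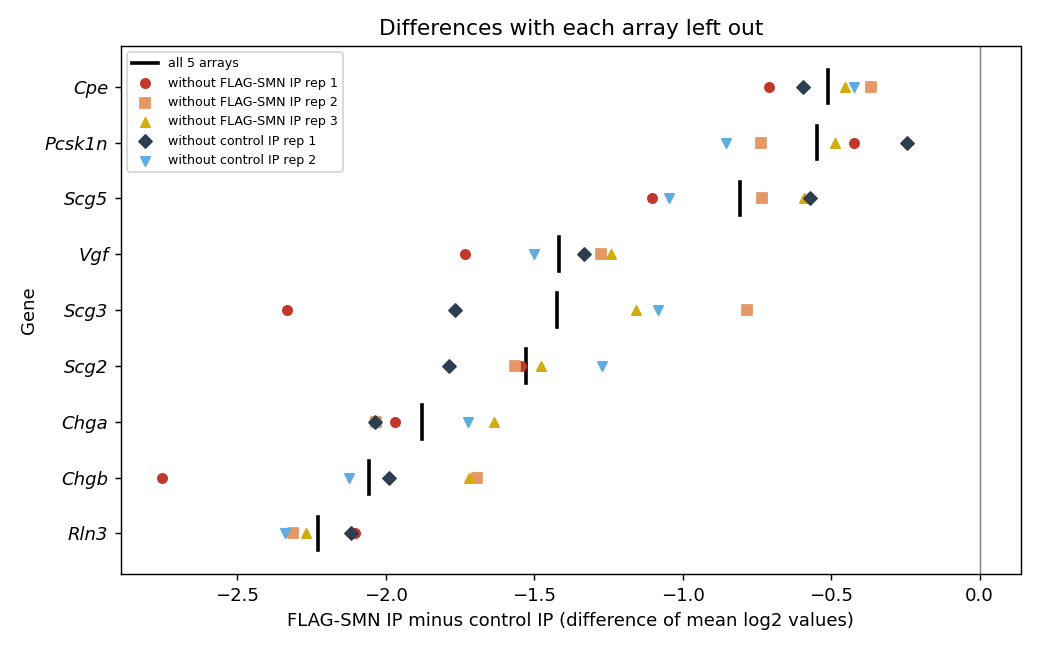
Difference of mean log2 signal, FLAG-SMN IP minus control IP, for the 9 genes with all 5 arrays (black bar) and with each array left out (symbols). All values are below 0; Rln3 stays between -2.34 and -2.10, whereas Scg3 runs from -2.33 without FLAG-SMN IP replicate 1 to -0.78 without replicate 2.

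The genes differed among themselves in where FLAG-SMN IP replicate 1 lay. It was above both other tagged arrays at 5 genes: 2.72 above their mean at Scg3, 2.09 at Chgb, 0.95 at Vgf, 0.88 at Scg5 and 0.60 at Cpe. At Chga and Scg2 it was within 0.27 and 0.043 of that mean. At Pcsk1n and Rln3 it was below both other arrays, by 0.37 from their mean in each case. Over the 9 genes the median offset of replicate 1 was 0.60, and over all probe sets 0.025. Without replicate 1 the median difference of the 9 genes from control was -1.73 in place of -1.42, and 8 of the 9, all but Pcsk1n, were below both controls, as were 20.3% of all probe sets. On the same 4 arrays 6 of the 9 (Chga, Chgb, Scg2, Scg3, Vgf and Rln3) had a limma adjusted p below 0.05. Of all probe sets, 0.678% did so in this direction. Leaving out FLAG-SMN IP replicate 2 or replicate 3 instead gave 0 of the 9. The genes were proposed from this contrast, so these counts describe them and support nothing.

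**Figure D3:**
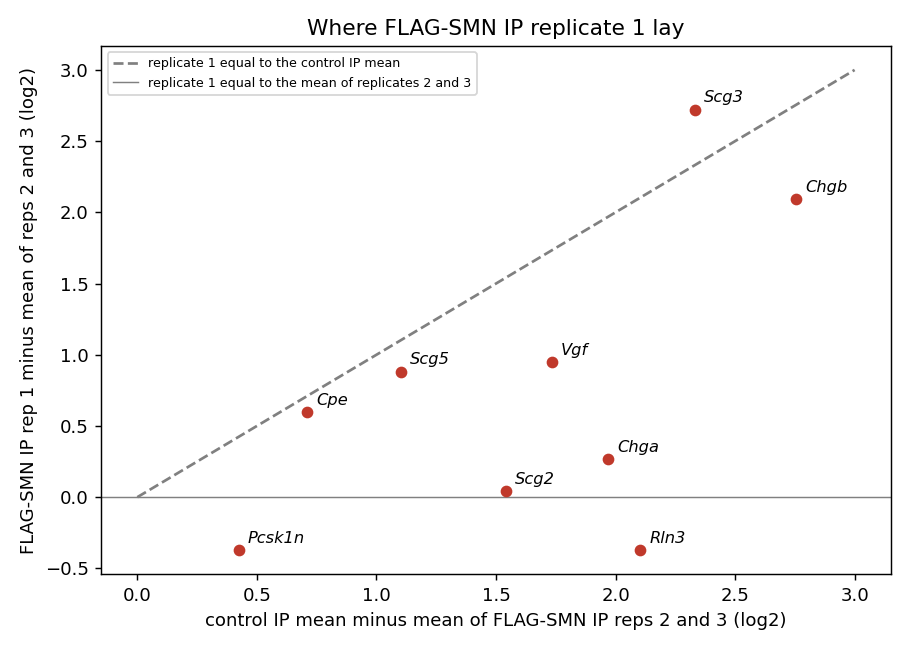
For each gene, how far FLAG-SMN IP replicate 1 lay from the mean of replicates 2 and 3 (vertical, log2) against how far the control IP mean lay from it (horizontal, log2). On the dashed line replicate 1 equals the control mean and on the solid line it equals the other tagged arrays; Scg3, Scg5 and Cpe lie near the dashed line, while Rln3, Chga and Scg2 lie near the solid one.

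FLAG-SMN IP replicate 1 also stood above the other tagged arrays at some neuronal markers. Of 20 motor neuron and neuronal markers, 15 were above the mean of replicates 2 and 3 in replicate 1 and 5 below it. Of 24 markers of glia and other cells, 17 were above it and 7 below, so both lists leaned in this direction. Such a share was not counted over all probe sets. Of these lists, only the neuronal one had offsets above 0.49. In the other list 10 of the 24 had a mean below the presumed control median, as did 4 of the 20 neuronal markers. The median offsets were 0.28 and 0.15, beside 0.025 for all probe sets. Offsets of the neuronal markers ran from -0.25 to 3.28, and those of the other list from -0.83 to 0.49. Gap43 at 10.70 against 7.38 and 7.47 and Tubb3 at 9.09 against 7.05 and 6.98, both picked after their values were seen, had the widest. The neuronal list's median signal was 5.96, 5.52 and 5.52 in FLAG-SMN IP and 5.66 and 5.83 in control IP.

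Between the precipitates, 3 of the 20 neuronal markers were lower and 0 higher at an unadjusted limma p under 0.05. Among all probe sets 6.31% were lower and 4.14% higher. At the adjusted threshold 0 of the 20 passed. The synaptic vesicle gene Syp was at 6.05, 5.59 and 5.38 in FLAG-SMN IP and at 7.52 and 6.96 in control IP, a difference of -1.56 (SE 0.28, limma adjusted p = 0.134). Map2, of the dendritic cytoskeleton, was at 6.30, 5.91 and 6.14 against 6.88 and 7.53, a difference of -1.09 (SE 0.25, limma adjusted p = 0.209). Both had every tagged array below both controls, as 3 of the 20 markers and 13.2% of all probe sets did. On the other side lay the motor neuron transcription factor genes Mnx1 (0.38, limma adjusted p = 0.646) and Lhx3 (0.30, limma adjusted p = 0.777). The list's median difference was -0.068, and -0.17 without replicate 1. The part of the neuronal markers in the granule gene values was not tested.

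Of the 24 markers of glia and other cells, 0 were lower and 1 higher at an unadjusted limma p under 0.05. Among all probe sets 6.31% were lower and 4.14% higher, so the 1 higher marker is near that share. At the adjusted threshold 0 of the 24 passed, and 10 had a mean below the presumed control median. The higher one was the endothelial gene Pecam1, at 6.58, 5.98 and 6.20 in FLAG-SMN IP and at 4.97 and 5.54 in control IP (1.00, SE 0.26, limma adjusted p = 0.248). The endothelial genes Kdr (-0.78, limma adjusted p = 0.539) and Cdh5 (-0.35, limma adjusted p = 0.640) lay on the lower side, and the glial factor gene Sox10 (0.43, limma adjusted p = 0.638) on the higher. The list's medians were 4.57, 4.52 and 4.63 in FLAG-SMN IP and 4.84 and 4.34 in control IP. Its median difference was 0.034, and -0.0056 without replicate 1. The part of these markers was not tested either.

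Markers of cholinergic motor neurons were mixed. Chat, of acetylcholine synthesis, lay between 4.28 and 4.69, around the presumed control medians, and Mnx1 between 3.40 and 4.17, below them. Ache, which breaks acetylcholine down, lay between 7.51 and 8.80, the vesicular transporter gene Slc18a3 between 5.21 and 5.56, and Isl1 between 4.96 and 6.39, all above them. Of the 20 neuronal markers, 13 were above the presumed control median on every array, and 4 had a mean below it.

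Genes of the rest of the granule pathway were drawn from 6 lists of 180 measured genes. In limma over all probe sets, 0 of the 180 were past an adjusted p of 0.05 in either direction. At an unadjusted p under 0.05 there were 25 lower and 6 higher, where 6.31% and 4.14% of all probe sets were lower and higher. The values below are therefore given without a call.

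Other prohormone processing enzymes had a median difference of -0.011 over 27 genes (-0.019 without replicate 1), with 3 lower and 0 higher at an unadjusted p under 0.05. The convertase gene Pcsk1 was at 3.44 to 3.74 on all arrays, below every presumed control median. The amidating enzyme gene Pam differed by 0.063 (SE 0.33, limma adjusted p = 0.992). Among the lower ones were Aebp1, a carboxypeptidase-like matrix protein gene, at 6.05 ± 0.14 (SD, n = 3) against 7.83 ± 0.50 (SD, n = 2), a difference of -1.77 (SE 0.25, limma adjusted p = 0.0957), and the convertase gene Pcsk6 at -1.09 (SE 0.21, limma adjusted p = 0.152). On the other side Pcsk4 had 0.37 (adjusted p = 0.725) and Cpz 0.24 (adjusted p = 0.792).

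Neuropeptide and peptide hormone precursors other than Rln3 gave a median difference of 0.046 over 64 genes, and 0.025 without replicate 1. Of these, 25 had a mean below the presumed control median, so much of this list was near background. At an unadjusted p under 0.05, 1 was lower (the pancreatic polypeptide gene Ppy, -0.90, limma adjusted p = 0.474) and 1 higher (the insulin-like gene Insl6, 1.05, limma adjusted p = 0.356). Insl6 was at 6.67, 7.73 and 7.77 in FLAG-SMN IP and at 6.25 and 6.43 in control IP. Npw had -0.53 (adjusted p = 0.658) and the secretin gene Sct 0.57 (adjusted p = 0.552). None of the relaxin and insulin-like genes measured in this list came near Rln3: Rln1 differed by 0.28 and Insl5 by 0.044.

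The 4 receptors of the relaxin family had a median difference of 0.12 (0.037 without replicate 1). Rxfp3, which binds the Rln3 peptide, lay between 3.65 and 4.23, below the presumed control medians. Rxfp4 differed by 0.16 (adjusted p = 0.964). Rxfp2 was at 5.35, 8.91 and 9.03 in FLAG-SMN IP and at 4.82 and 6.33 in control IP, so replicate 1 lay with the controls. Its difference was 2.19 (SE 1.11, limma adjusted p = 0.587), and 3.40 without replicate 1 (limma adjusted p = 0.0191).

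Granule biogenesis and sorting genes had a median of -0.047 over 33 genes (-0.033 without replicate 1), with 6 lower and 4 higher at an unadjusted p under 0.05. Syt4, a synaptotagmin of maturing granules, was at 6.08 ± 0.20 (SD, n = 3) against 7.72 ± 0.23 (SD, n = 2), a difference of -1.64 (SE 0.21, limma adjusted p = 0.0864). Ap3b2, the neuronal subunit of the AP-3 sorting adaptor, differed by -1.70 (SE 0.37, limma adjusted p = 0.194). Both kept every tagged array below both controls. On the higher side Vps51, a subunit of tethering complexes at the trans-Golgi network, had 0.67 (adjusted p = 0.252), and Pi4k2a, a lipid kinase of that compartment, 0.48 (adjusted p = 0.457). Gnas, which also encodes a granin-like protein, had no probe set of its own.

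Granule membrane and exocytosis genes had a median of -0.18 over 37 genes (-0.27 without replicate 1), with 11 lower and 1 higher at an unadjusted p under 0.05. Groups did not overlap at 16 genes in the lower and 3 in the higher direction, where 13.2% and 12.1% of all probe sets did so. The membrane fusion gene Snap25 was at 7.25, 6.05 and 6.32 in FLAG-SMN IP and at 8.55 and 8.80 in control IP, a difference of -2.14 (SE 0.36, limma adjusted p = 0.131). Ptprn, whose product spans the granule membrane, was at 8.17, 6.66 and 6.62 against 8.70 and 8.53, the same order of arrays as Vgf among the tagged ones. Its difference was -1.47 (SE 0.47, limma adjusted p = 0.329). The vesicle glycoprotein gene Sv2a had -0.95 (adjusted p = 0.134), and Cadps, a priming factor of granule release, -0.96 (adjusted p = 0.263). The 1 higher gene was Myrip (0.49, adjusted p = 0.448), which links granules to myosin, and Snap47 had 0.26 (adjusted p = 0.778).

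**Figure D4:**
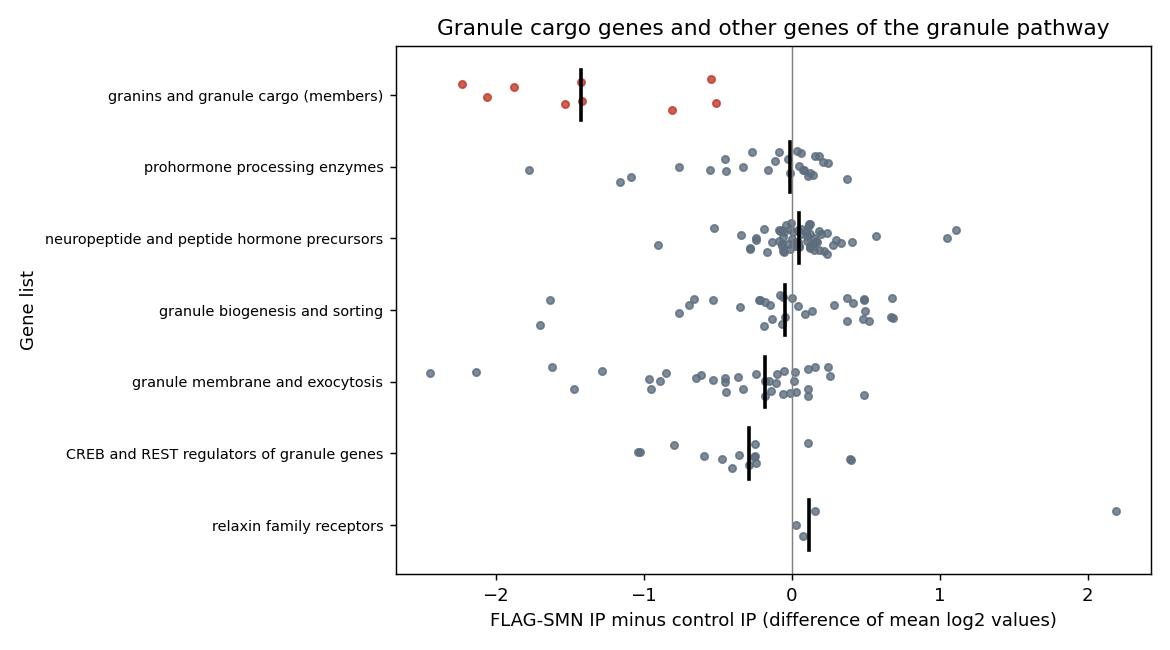
Difference of mean log2 signal, FLAG-SMN IP minus control IP, for each measured gene of 7 lists (points, jittered vertically) with the list median (black bar). The 9 cargo genes all lie below 0 with a median of -1.42, by the way they were proposed, while the other lists have medians from -0.29 to 0.12.

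Without replicate 1, 8 of the 180 pathway genes were lower and 2 higher past an adjusted p of 0.05 in limma, against 0.678% and 0.564% of all probe sets. The lower ones were the exocytosis genes Syt9 (-3.22), Snap25 (-2.49), Sv2c (-2.17), Ptprn (-1.98) and Unc13a (-1.82), the sorting genes Ap3b2 (-2.06) and Syt4 (-1.71), and Aebp1 (-1.83). The higher ones were Rxfp2 and Insl6 (1.41). Leaving out any other single array gave 0.

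Genes of CREB, REST and related regulators had a median of -0.29 over 15 genes (-0.45 without replicate 1). At an unadjusted limma p under 0.05, 4 were lower and 0 higher, where 6.31% and 4.14% of all probe sets were. Whether they act on the cargo genes here was not tested. The coactivator genes Ep300 (-1.04, limma adjusted p = 0.241) and Crebbp (-0.80, limma adjusted p = 0.311) had the smallest p-values. Creb1 itself differed by -0.47 (adjusted p = 0.572). Rest, the repressor of neuronal genes, had 0.39 (adjusted p = 0.773) and its corepressor gene Rcor2 0.40 (adjusted p = 0.601).

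Catecholamines share the granule with chromogranins. Their synthesis genes were mixed. Th was at 5.44, 4.58 and 4.80 in FLAG-SMN IP and at 6.91 and 6.85 in control IP (-1.94, limma adjusted p = 0.0957). Dbh was at 4.94, 5.38 and 5.33 against 6.91 and 7.98 (-2.23, limma adjusted p = 0.110). On the higher side lay Ddc (0.76, limma adjusted p = 0.228), Gch1 (0.87, limma adjusted p = 0.642) and Pnmt (0.085, limma adjusted p = 0.966). Gch1 was at 9.08, 7.34 and 7.73 in FLAG-SMN IP, and its difference was 0.36 without replicate 1. Pnmt lay between 4.16 and 4.36, around the presumed control medians. The list of 11 catecholamine and noradrenergic identity genes had 4 negative and 7 positive differences, with a median of 0.085 (0.12 without replicate 1). Gata3 (0.50, limma adjusted p = 0.469) was also on the higher side.

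The array profiles most like the mean profile of the 9 cargo genes were sought among 10774 other genes brighter than the median probe set, by the root mean square difference of log2 values after centring each gene on its own mean over the 5 arrays. The closest 5 were the retinol transporter gene Stra6 (0.074), the synapsin gene Syn1 (0.078), Aig1 (0.10), the monoamine transporter gene Slc29a4 (0.11) and Tmem145 (0.12). Their differences between the precipitates ran from -1.24 for Syn1 to -1.37 for Stra6. Of the cargo genes themselves Vgf was closest to their mean profile (0.093) and Scg3 farthest (0.80), with 6194 other genes closer than Scg3. With 5 arrays this likeness describes values only.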

How the data were processed

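RNA of 3 FLAG-SMN and 2 control precipitates was read on 5 single-colour Affymetrix arrays from 300 to 500 ng of RNA, per the labels' protocols. The deposited values are log2 RMA signals, per the submitters' processing notes; no source used here names the RMA version. The range, 1.28 to 14.15, gave the log2 base. Of 34760 probe sets, 6573 with IDs below the lowest annotated one were treated as presumed controls and dropped. The brightest single-symbol probe set stood for a gene. limma 3.58.1 in R 4.3.3 (lmFit, eBayes, 2-sided, no block) was fitted on all 28187 probe sets with Benjamini-Hochberg adjustment, and was tested on simulated data. The number of arrays limits the precision.

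Named were the 10 cargo genes, the 2 genes of smallest p on each side of every other list, a few fixed genes and the 5 closest profiles. Rln1, Insl5, Gap43, Tubb3, Chat, Ache, Slc18a3, Isl1, Gch1, Pnmt and the genes called without replicate 1 were added after their values were seen. Members and lists were chosen with earlier results of these data known. Alternatives were other scaling, centring, probe set filters, variance moderation, blocking on replicate number, and omitting single arrays. Averaging a gene's probe sets was also planned but leaves the cargo genes, with 1 each, as they are. Promoters came from RefSeq (GRCm38.p6). Figures used matplotlib 3.10.9.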

Additional observations from a re-analysis of the deposited data

How the results depend on the processing

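Over 8 alternatives, all 72 values of the cargo genes stayed below 0, and 70 moved by less than the gene's spread between replicates. Leaving out 1 FLAG-SMN array cannot move a value by more than that spread, which the omitted array itself widens. The tally is therefore no measure of stability. Scg3 counts among the 70 although it went from -1.42 to -2.33 without FLAG-SMN IP replicate 1. Scg2 moved by more than its spread, to -1.79 without control IP replicate 1 and to -1.27 without control IP replicate 2. The median over the 9 genes was -1.37 under cyclic loess scaling, -1.39 when centred on the brighter probe sets, and between -1.77 and -1.24 with single arrays left out. The replicate number as a block gave -1.24, the same as leaving out FLAG-SMN IP replicate 3, which has no partner among the controls. The numbers share no stated batch. The deviations of same-numbered arrays had r = 0.13 for replicate 1 and -0.20 for replicate 2. The deviations of the 2 control arrays mirror each other, so these are not independent checks, and a shared batch was not tested.

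Calls over all probe sets, 5 lower and 4 higher, became 0 and 0 under cyclic loess, with the replicate block and with all probe sets of the table. They became 25 and 16 when centred on the brighter probe sets, 8 lower with trend and robust moderation, and 0 to 191 lower and 0 to 159 higher with single arrays left out. Rln3 had limma adjusted p from 0.00862 to 0.474 over these fits. It lost its call under cyclic loess (adjusted p = 0.101), with all probe sets (adjusted p = 0.151), with the replicate block (adjusted p = 0.0911) and without any array other than FLAG-SMN IP replicate 1 (adjusted p from 0.136 to 0.474). Fewer arrays give less power, and otherwise the cause was not tested.

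For the pathway lists, centring on the brighter probe sets gave 1 lower gene at the adjusted threshold, Syt4, and single arrays left out gave 0 to 8 lower and 0 to 2 higher. At an unadjusted p under 0.05 the counts of 25 lower and 6 higher became 12 to 30 and 1 to 7 with single arrays left out, and 2 higher with brighter probe sets, all probe sets, trend and robust moderation or the replicate block. With brighter probe sets only, medians were -0.30 for processing enzymes, -0.36 for membrane and exocytosis genes and 2.19 for relaxin receptors, then Rxfp2 alone. The block moved the processing enzymes to 0.046. With single arrays left out, medians ran from -0.051 to 0.046 for processing enzymes, from -0.13 to 0.21 for peptide precursors, from -0.088 to 0.087 for biogenesis genes, from -0.33 to -0.088 for membrane genes, from -0.17 to 0.50 for relaxin receptors and from -0.49 to -0.17 for regulators.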
